A study of Mus musculus with 8 samples.

Results

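The S100 genes described here are 9 members of the S100 family that the gene tables listed by Ensembl identifier: S100a1, S100a4, S100a6, S100a8, S100a9, S100a10, S100a11, S100a13 and S100a16. They are 9 of 52636 genes in the tables and were selected by gene symbol through the GRCm38 mouse annotation. Poly(A)-selected RNA from the liver of 8 male C57BL/6J mice was sequenced, 1 library per mouse. Each mouse received an adeno-associated virus of serotype 8 (AAV8) by intraperitoneal injection at 7 weeks of age and, from 8 weeks of age, a diet high in fat, cholesterol and fructose for 24 weeks, which induces metabolic dysfunction-associated steatohepatitis (MASH). In 4 mice (AAV8-GFP, animals 303, 311, 314 and 315) the virus carried green fluorescent protein, and in 4 mice (AAV8-AGXT, animals 308, 309, 316 and 319) it carried the human AGXT coding sequence. AGXT is the enzyme that turns glyoxylate into glycine and so withholds it from oxalate formation. Both vectors were driven by the thyroxine-binding globulin (TBG) promoter, which is active in hepatocytes, so the transgene was directed to that cell type while the RNA came from whole liver. All 8 mice carried a vector and ate the diet, and the single contrast was AAV8-AGXT against AAV8-GFP. It addressed how liver transcripts differed with hepatocyte AGXT overexpression at the end of the diet.

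S100 proteins are small calcium-binding proteins with paired EF-hand loops that mostly act as dimers. Inside cells they bind annexins, cytoskeletal proteins and other targets when calcium rises. Some are released by damaged or activated cells and act outside as damage signals (alarmins) through the receptor for advanced glycation end products (RAGE) and Toll-like receptor 4. S100A8 and S100A9 form the heterodimer calprotectin, a major cytosolic protein of neutrophils and monocytes. S100A10 is the partner of annexin A2, with which it brings plasminogen and its activators to the cell surface. S100A4 is known from fibroblasts and macrophages, S100A6 and S100A11 from many epithelial and mesenchymal cells, and S100A1 from muscle and other differentiated cells.

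Promoter windows are given for 4 genes on which the results below turn: S100a11 and S100a6, which fell, Anxa2, the gene of the S100A10 partner, which fell too, and S100a1, which was abundant in both groups. Each is the stretch of 250 bases before the RefSeq start (GRCm38.p6), read 5′ to 3′ on the strand of the gene. The windows are chr3:93520246-93520495 (plus strand) for S100a11, chr3:90612644-90612893 (plus strand) for S100a6, chr9:69453433-69453682 (plus strand) for Anxa2 and chr3:90514331-90514580 (minus strand) for S100a1. Capitals mark matches on either strand to the 5 motifs searched: AP-1 (TGANTCA), C/EBP (TTGCNNAA), NF-kB (GGGNNTTTC), PU.1 (GAGGAA) and the TATA box (TATAAA).
S100a11: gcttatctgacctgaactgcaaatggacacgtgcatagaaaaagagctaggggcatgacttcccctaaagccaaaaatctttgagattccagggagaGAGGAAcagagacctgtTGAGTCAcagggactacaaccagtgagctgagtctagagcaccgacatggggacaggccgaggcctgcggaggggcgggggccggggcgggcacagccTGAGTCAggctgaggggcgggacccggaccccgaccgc
S100a6: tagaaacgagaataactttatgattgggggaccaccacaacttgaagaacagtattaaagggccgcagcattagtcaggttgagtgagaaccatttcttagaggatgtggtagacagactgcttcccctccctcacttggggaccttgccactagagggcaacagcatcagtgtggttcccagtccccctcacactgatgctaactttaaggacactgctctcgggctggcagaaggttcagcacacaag
Anxa2: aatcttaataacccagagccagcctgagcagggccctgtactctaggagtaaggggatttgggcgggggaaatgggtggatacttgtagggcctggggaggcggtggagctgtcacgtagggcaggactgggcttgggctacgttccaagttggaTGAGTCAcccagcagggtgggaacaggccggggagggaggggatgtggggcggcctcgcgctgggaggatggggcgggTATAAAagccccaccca
S100a1: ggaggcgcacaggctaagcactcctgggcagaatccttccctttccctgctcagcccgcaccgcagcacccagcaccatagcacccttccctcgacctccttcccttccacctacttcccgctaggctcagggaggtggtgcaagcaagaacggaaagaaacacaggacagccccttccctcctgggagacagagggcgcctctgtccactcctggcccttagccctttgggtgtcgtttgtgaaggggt

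The S100a11 window held 2 copies of the AP-1 motif, at 136 to 130 and 38 to 32 bases before the start, and 1 PU.1 motif at 153 to 148 bases. The Anxa2 window held 1 AP-1 motif at 95 to 89 bases and a TATA box at 17 to 12 bases. The windows of S100a6, S100a1 and S100a13 held 0 matches. Among the calprotectin genes, the S100a8 window held 2 PU.1 motifs, of which the nearer directly preceded a TATA box at 30 to 25 bases, and the S100a9 window held 1 C/EBP and 1 NF-kB motif. The S100a4 window held a TATA box at 31 to 26 bases. S100a16, which was not called, had 2 windows, of which the first held a PU.1 motif at 180 to 175 bases and the second an AP-1 motif at 192 to 186 bases. Of 32851 RefSeq promoter windows of the same length, 6.75% held the AP-1 motif, 9.56% C/EBP, 3.72% NF-kB, 23.3% PU.1 and 12.4% the TATA box. These are matches of letters only, and binding was not measured.

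In livers from AAV8-AGXT mice, 2 of the 9 S100 genes, S100a6 and S100a11, were significantly lower than in AAV8-GFP mice, by 3.27-fold and 3.09-fold, and 0 were higher. Transcripts of S100a10, S100a16, S100a8 and S100a9 had lower means in AAV8-AGXT mice without passing the test, and S100a1 and S100a13 were near the same level in both groups. A call was an adjusted p under 0.05 in the quasi-likelihood test of edgeR, adjusted by the Benjamini-Hochberg method over the 15248 genes that passed a filter on low counts. Over those genes, 1.9% were called lower (290 genes) and 2.45% higher (374 genes). S100a4 did not pass the filter, so 8 members were tested. At an unadjusted p under 0.05 in edgeR, 4 members were lower and 0 higher, where 12.6% of all genes tested were lower and 13.5% higher. DESeq2 called the same 2 members lower, where it called 6.93% of all genes lower and 7.08% higher. These shares are the background for the counts of each gene list below. The median log2 fold change was -0.52 over the 8 tested members and 0.02 over all genes tested. The members and the gene lists were chosen with earlier results of these data known. Comparisons of them with all genes are therefore a description only.

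**Figure D1:**
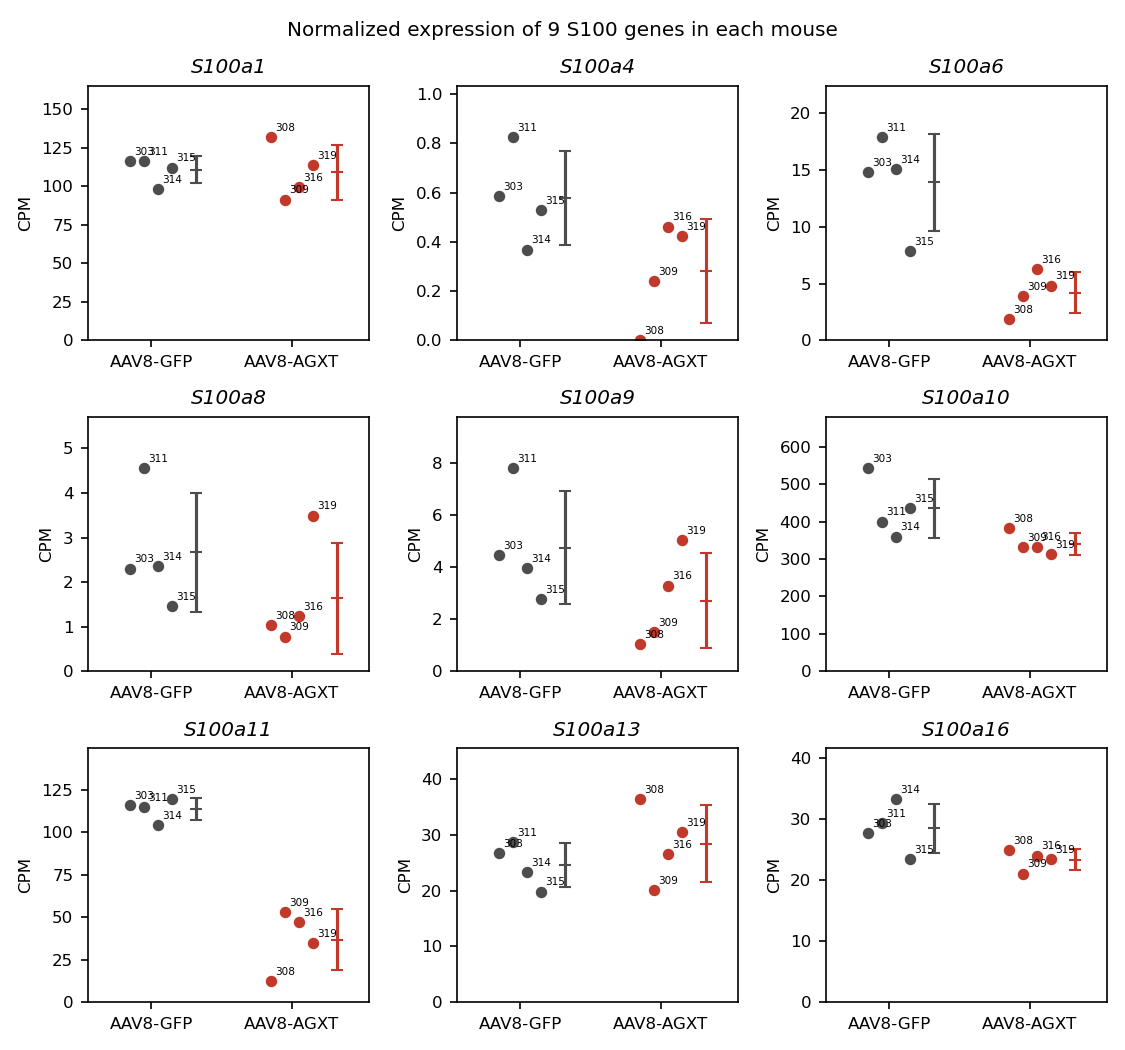
Normalized counts per 1000000 (CPM, linear axes from 0) of the 9 S100 genes in each of the 8 mice, 1 panel per gene, with the animal number beside each point. The bars beside the points are the group mean and SD (n = 4). In the panels of S100a6 and S100a11 all 4 AAV8-AGXT mice sit below all 4 AAV8-GFP mice, whereas the groups overlap for the other 7 genes.

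The libraries held 17095433 to 28780140 read pairs counted on genes, and no 2 libraries held identical values. Animal 308 had the lowest share of its read pairs on genes, 56.3%, against 62.4% to 69.1% in the other 7 libraries. The labelled tissue was checked with 9 hepatocyte genes, whose summed level was 54230 to 65490 CPM with AAV8-GFP and 69910 to 95650 CPM with AAV8-AGXT. The TMM composition factors were 1.02 to 1.14 with AAV8-GFP and 0.83 to 1.00 with AAV8-AGXT. Without these factors the median log2 fold change of all genes was -0.22, and 14.4% of the called genes were higher (144 of them, against 857 lower) in place of 56.3%. With upper-quartile factors 46.0% were higher. The mouse Agxt gene, to which pairs of the human transgene may also align, had 148, 179.9, 153 and 175 CPM in AAV8-GFP mice and 405, 202, 243 and 371 CPM in AAV8-AGXT mice. All 4 AAV8-AGXT values were above the highest AAV8-GFP value (log2 fold change 0.90, SE 0.22, adjusted p = 0.0489), and this call was lost without any of the mice except 309 (adjusted p up to 0.145). How far pairs of the human sequence entered this row was not tested. In bulk liver, fewer cells of a type and less RNA per cell cannot be told apart, and transcript levels do not give the amount of protein.

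S100a11 (ENSMUSG00000027907, chr3:93520488-93526287, plus strand) encodes a protein that binds annexin A1 and is found in the cytosol and nucleus of many cell types. Its level was 116, 115, 104 and 119.7 CPM in AAV8-GFP mice 303, 311, 314 and 315, and 12.4, 53.0, 47.0 and 34.8 CPM in AAV8-AGXT mice 308, 309, 316 and 319. The 4 AAV8-GFP values lay close together, the 4 AAV8-AGXT values were all below them, and animal 308 was far below its own group. The mean was 114 ± 6.68 CPM with AAV8-GFP and 36.8 ± 17.97 CPM with AAV8-AGXT (SD, n = 4). The log2 fold change was -1.63 (SE 0.35, adjusted p = 0.0388 by edgeR and 1.72e-04 by DESeq2). Groups that did not overlap, with AAV8-AGXT lower, were found for 7.63% of all genes tested. When each mouse was left out in turn, the log2 fold change ranged from -1.86 to -1.35, and the adjusted p stayed below the threshold only without 308 or 309. The call was lost without 303, 311, 314, 315, 316 or 319 (adjusted p up to 0.135). Among the read pairs counted on the 9 S100 genes, S100a11 took 13.6% to 16.5% with AAV8-GFP and 2.09% to 10.1% with AAV8-AGXT.

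S100a6 (ENSMUSG00000001025, chr3:90612882-90624181, plus strand), or calcyclin, encodes a protein that binds the ubiquitin ligase component CACYBP and annexins. Its level was 14.8, 17.9, 15.04 and 7.85 CPM in AAV8-GFP mice 303, 311, 314 and 315, and 1.86, 3.91, 6.27 and 4.81 CPM in AAV8-AGXT mice 308, 309, 316 and 319. The groups did not overlap, although AAV8-GFP animal 315 lay nearer to the highest AAV8-AGXT mouse than to the rest of its own group. The mean fell from 13.9 ± 4.27 to 4.21 ± 1.84 CPM (SD, n = 4), a log2 fold change of -1.71 (SE 0.35, adjusted p = 0.0363 by edgeR and 9.69e-05 by DESeq2). Leaving out each mouse gave log2 fold changes of -1.96 to -1.49. The call was lost without 303, 311, 314, 309 or 319 (adjusted p up to 0.135) and kept without 315, 308 or 316. Animal 308, with the lowest S100a11, also had the lowest S100a6.

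S100a10 (ENSMUSG00000041959, chr3:93555080-93564643, plus strand), the gene of the annexin A2 partner p11, was the most abundant member and made up 55.5% to 64.7% of the members' read pairs in every mouse. Its level was 543, 399.7, 360.0 and 437 CPM in AAV8-GFP mice and 383, 332, 333 and 313 CPM in AAV8-AGXT mice. The groups overlapped, since AAV8-AGXT animal 308 lay above AAV8-GFP animal 314. The mean was 435 ± 78.7 against 340.2 ± 30.0 CPM (SD, n = 4), a log2 fold change of -0.35 (SE 0.15, adjusted p = 0.166 by edgeR). S100a10 was called lower when no composition factor was used (adjusted p = 0.0418). It is the neighbour of S100a11 on the chromosome, 28.8 kb away and on the same strand.

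Anxa2 (ENSMUSG00000032231), the gene of annexin A2, fell where its S100 partner did not pass the test. Its level was 220.2, 226, 313 and 251 CPM in AAV8-GFP mice and 65.7, 125, 135 and 86.8 CPM in AAV8-AGXT mice. All AAV8-AGXT values were below the AAV8-GFP values (log2 fold change -1.29, SE 0.23, adjusted p = 0.0294 by edgeR). The call was lost without 311, 314 or 319 (adjusted p up to 0.115), and 98 exonic bases are shared with Gm16144 on the opposite strand, with a counting option for strand that is not stated. The ratio of S100a10 to Anxa2 transcripts per kilobase of exon was 7.59, 5.45, 3.54 and 5.35 in AAV8-GFP mice and 17.96, 8.16, 7.58 and 11.1 in AAV8-AGXT mice. Its group means differed 1.99-fold (log2 difference 0.99, two-sided exact permutation p = 0.0571). Animal 316 lay just below AAV8-GFP animal 303, so the groups overlapped and the smallest p that 70 arrangements allow, 0.0286, was not reached. Without animal 303 the log2 difference was 1.17 and the exact p was 0.0286. Animal 303 was the AAV8-GFP mouse that overlapped, so leaving it out separates the groups and this p adds no support. Leaving out any other single mouse gave an exact p of 0.0571 to 0.143.

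S100a1 and S100a13 lie head to head with 42 bases between their annotated ends, and neither passed the test. S100a1 (ENSMUSG00000044080, chr3:90511034-90514392, minus strand), whose protein regulates calcium handling in muscle, had 116, 116, 98.1 and 112 CPM in AAV8-GFP mice and 132, 91.3, 99.5 and 113 CPM in AAV8-AGXT mice. The highest and the lowest value were both in the AAV8-AGXT group, in animals 308 and 309. The means of 111 ± 8.67 and 109 ± 17.8 CPM gave a log2 fold change of -0.02 (SE 0.13, adjusted p = 0.934 by edgeR). S100a13 (ENSMUSG00000042312, chr3:90514435-90524581, plus strand), whose protein takes part in the non-classical release of FGF1, had 26.7, 28.6, 23.3 and 19.8 CPM in AAV8-GFP mice and 36.4, 20.1, 26.5 and 30.5 CPM in AAV8-AGXT mice. Its groups overlapped (log2 fold change 0.20, SE 0.18, adjusted p = 0.516 by edgeR). As for S100a1, animal 308 held the highest and animal 309 the lowest AAV8-AGXT value. The share of S100a1 in the members' read pairs was 13.7% to 16.2% with AAV8-GFP and 17.4% to 22.3% with AAV8-AGXT, while the members' summed level was 640.5 to 852 against 524 to 593 CPM.

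S100a16 (ENSMUSG00000074457, chr3:90537254-90543151, plus strand), a broadly expressed member, had 27.7, 29.4, 33.3 and 23.5 CPM in AAV8-GFP mice and 24.9, 21.03, 24.0 and 23.5 CPM in AAV8-AGXT mice. The groups overlapped through AAV8-GFP animal 315. The log2 fold change was -0.28 (SE 0.12) with an unadjusted p of 0.042 in the edgeR model and an adjusted p of 0.174.

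The calprotectin genes were expressed at low levels and did not pass the test. S100a8 (ENSMUSG00000056054, chr3:90668978-90670035, plus strand) had 2.30, 4.56, 2.35 and 1.46 CPM in AAV8-GFP mice and 1.04, 0.781, 1.23 and 3.49 CPM in AAV8-AGXT mice, from 13 to 149 read pairs per library. S100a9 (ENSMUSG00000056071, chr3:90692632-90695721, minus strand) had 4.45, 7.81, 3.97 and 2.78 CPM in AAV8-GFP mice and 1.04, 1.502, 3.29 and 5.05 CPM in AAV8-AGXT mice. For both genes animal 319 was the highest of the AAV8-AGXT mice and animal 311 the highest of all. The log2 fold changes were -0.69 for S100a8 (SE 0.50, adjusted p = 0.407 by edgeR) and -0.79 for S100a9 (SE 0.47, adjusted p = 0.318). Without animal 319 they were -1.39 and -1.27, with adjusted p of 0.131 and 0.169, and without animal 311 they were -0.31 and -0.45, with adjusted p of 0.788 and 0.665. The log2 ratio of S100a8 to S100a9 per kilobase was -1.26 ± 0.10 with AAV8-GFP and -1.13 ± 0.60 with AAV8-AGXT (SD, n = 4), a difference of 0.13 (two-sided exact permutation p = 0.686). The ratio was thus steady among AAV8-GFP mice and spread more widely among AAV8-AGXT mice, where animal 308 had 15 read pairs on each gene.

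Genes that mark neutrophils were read beside the calprotectin genes. Over 15 neutrophil genes the summed level was 22.6 to 28.3 CPM with AAV8-GFP and 8.63, 12.1, 17.6 and 48.2 CPM in AAV8-AGXT mice 308, 309, 316 and 319, so the order of these AAV8-AGXT mice was also that of S100a9. It was not that of S100a8, where 308 (1.04 CPM) lay above 309 (0.781 CPM). Among AAV8-GFP mice the order of the sum was that of S100a8 and not that of S100a9. That order rests on a near tie, with sums of 22.61 CPM in animal 303 and 22.58 CPM in animal 315. Prtn3 alone was 2.85 and 0.441 CPM in these animals. Of the 15, 5 were tested and 0 were called by edgeR, 1 was lower at an unadjusted p under 0.05, and DESeq2 called 1 lower. That gene was Csf3r, the receptor for granulocyte colony-stimulating factor, at 13.8 to 19.3 CPM with AAV8-GFP and 4.63 to 12.8 CPM with AAV8-AGXT (log2 fold change -0.89, adjusted p = 0.0833 by edgeR). The defining markers were at or near 0: Ly6g was 0 in every mouse except 319, where it was 0.142 CPM, and Mpo did not exceed 0.154 CPM. The largest part of the sum in animal 319 was Prtn3, at 25.0 CPM there and 0.441 to 6.13 CPM in the other 7 mice. The part of neutrophil number in the calprotectin values was not tested.

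S100a4 (ENSMUSG00000001020, chr3:90603771-90606045, plus strand) had 15, 27, 8 and 12 read pairs in AAV8-GFP mice and 0, 4, 9 and 9 in AAV8-AGXT mice, which is at most 0.826 CPM. The groups overlapped, and the 0 in animal 308 allows up to 0.207 CPM at a limit of 3 counts. Of its 584 exonic bases, 302 are shared on the same strand with Gm42674, which is listed at 0 in all 8 libraries, and a read pair lying in the shared stretch can be set aside as ambiguous by the counting program. The values may therefore miss pairs and cannot be read as a low level of S100a4. Without the filter on low counts its log2 fold change was -0.99 (SE 0.59, adjusted p = 0.430 by edgeR).

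Per kilobase of exon, the order of the mean levels in AAV8-GFP mice was S100a10 (359 CPM per kb), S100a11 (222), S100a1 (159.5), S100a13 (34.4), S100a16 (17.6), S100a6 (10.2), S100a9 (9.10) and S100a8 (3.85). In AAV8-AGXT mice the means were S100a10 (281 CPM per kb), S100a1 (157), S100a11 (72.0), S100a13 (39.7), S100a16 (14.4), S100a9 (5.21), S100a6 (3.08) and S100a8 (2.36). S100a4 was not placed in this order, because its counts may miss read pairs. S100a11 thus stood second in one group and below S100a1 in the other, while S100a10 was first in both. The neighbours S100a6 and S100a9 differed by less than the larger SD of the pair in both groups. In AAV8-AGXT mice the same held for S100a11 and S100a13, where the SD of S100a11 was 35.2 CPM per kb, and for S100a6 and S100a8.

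The rest of the family was scarcely present in the liver. Of 15 other genes of the S100 and fused S100 groups, 14 were in the tables, 5 were at 0 in all 8 libraries (S100a5, S100z, Hrnr, Flg and Flg2) and 2 passed the filter. S100a3, S100a7a, S100a14, S100b, Tchhl1, Rptn and Crnn were not tested and had at most 0.643 CPM, and S100a2 had 1 read pair in all. S100g (calbindin D9k), which buffers calcium in absorptive epithelia, had 0.742, 0.826, 1.06 and 1.99 CPM in AAV8-GFP mice and 0.069, 0.36, 0.36 and 0 CPM in AAV8-AGXT mice. Its groups did not overlap, with a log2 fold change of -2.51 (SE 0.68) that missed the threshold by edgeR (adjusted p = 0.0652) and passed it by DESeq2 (0.00643). Tchh (trichohyalin), a fused S100 gene of hair follicles, had 2.23, 1.81, 2.26 and 2.12 CPM in AAV8-GFP mice and 4.004, 14.7, 2.72 and 3.16 CPM in AAV8-AGXT mice, with animal 309 far above the rest. It was not called by edgeR (log2 fold change 1.54, SE 0.51, adjusted p = 0.098), whereas DESeq2 gave an adjusted p of 0.0212. Without animal 309 the log2 fold change was 0.62.

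On chromosome 3 the 9 genes span 90511034 to 93564643. S100a1 to S100a9 occupy 184.7 kb, and S100a11 and S100a10 follow after 2.83 Mb. The interval held 121 genes of the tables, of which 100 do not belong to the S100 groups, 79 of these were at 0 in all libraries and 5 were tested. The median log2 fold change of these 5 was 0.32, and 1 was called, Sprr1a, which encodes a cornified envelope protein also induced in stressed tissue. Sprr1a had 6.09, 6.18, 9.87 and 12.4 CPM in AAV8-GFP mice and 0, 1.38, 1.39 and 0.897 CPM in AAV8-AGXT mice. All AAV8-AGXT values were far below the AAV8-GFP values (log2 fold change -3.19, SE 0.57, adjusted p = 0.0303 by edgeR), and the call was lost without 311, 314 or 319 (adjusted p up to 0.115). Within the cluster the called S100a6 lay between the uncalled S100a16 and S100a8, and the called S100a11 beside the uncalled S100a10.

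**Figure D2:**
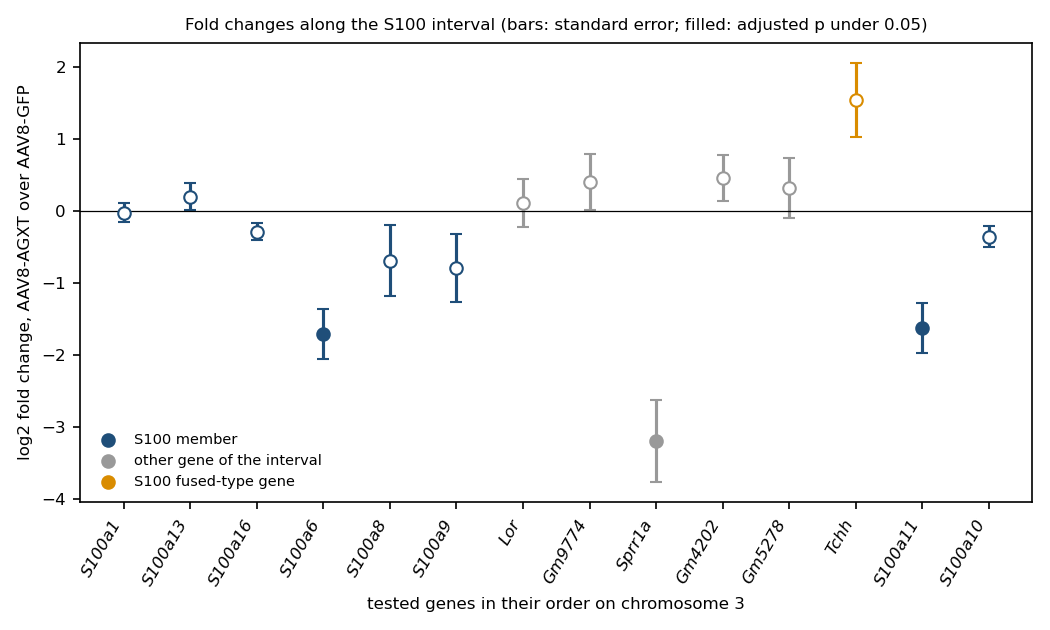
Log2 fold change, AAV8-AGXT over AAV8-GFP, of the 8 tested S100 members, Tchh and the 5 other tested genes of the interval, in their order on chromosome 3 and not to scale. Bars are the standard error of the edgeR fit and filled symbols mark an adjusted p under 0.05. S100a6 (-1.71), Sprr1a (-3.19) and S100a11 (-1.63) are the filled symbols.

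Of 20 genes of S100 binding partners and of the plasminogen system, all tested, 4 fell (Anxa2, Tpm1, Trp53 and Plau), 1 rose (Fgf1) and 15 were not called by edgeR, with a median log2 fold change of -0.45 against 0.02 over all genes. DESeq2 called 9 lower and 1 higher. Fgf1 (ENSMUSG00000036585), a growth factor that lacks a secretion signal and leaves the cell in a complex with S100A13, had 60.4, 59.1, 56.4 and 60.2 CPM in AAV8-GFP mice and 168, 114, 97.3 and 137 CPM in AAV8-AGXT mice. Every AAV8-AGXT mouse was above every AAV8-GFP mouse (log2 fold change 1.13, SE 0.16, adjusted p = 0.0202 by edgeR, lost without 311, 314 or 319 with adjusted p up to 0.108), while S100a13 itself overlapped between the groups. Tpm1 (tropomyosin 1) fell by 0.65 on the log2 scale (adjusted p = 0.0363) and Trp53 (p53) fell by 0.40 (adjusted p = 0.0451).

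In the plasminogen system, which the S100A10 and annexin A2 complex recruits, 1 of 4 genes was called by edgeR, lower (1.9% lower over all genes). Plau, the urokinase-type plasminogen activator, had 5.47, 8.20, 7.61 and 4.90 CPM in AAV8-GFP mice and 1.59, 2.46, 4.42 and 1.84 CPM in AAV8-AGXT mice. The groups were just apart (log2 fold change -1.34, SE 0.33, adjusted p = 0.0496 by edgeR). The tissue-type activator Plat (log2 fold change -1.75, adjusted p = 0.0578) and the urokinase receptor Plaur (-1.26, adjusted p = 0.0868) did not pass the edgeR test, nor did plasminogen itself, Plg (0.45, adjusted p = 0.143). By DESeq2 the adjusted p was 0.00205 for Plau, 0.0021 for Plat, 0.0164 for Plaur and 0.0644 for Plg. Among the other annexin genes, Anxa1 (-1.02, adjusted p = 0.0677), whose protein is a partner of S100A11, Anxa4 (-0.49, adjusted p = 0.0757) and Anxa5 (-0.74, adjusted p = 0.0834) did not pass the edgeR test either. DESeq2 gave them adjusted p of 0.00834, 0.0261 and 0.0183. The calls of Tpm1, Trp53 and Plau were lost without 303, 311, 314, 315 or 319. That of Trp53 was also lost without 308 or 316, and that of Plau without 308 or 309 (adjusted p up to 0.167).

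**Figure D3:**
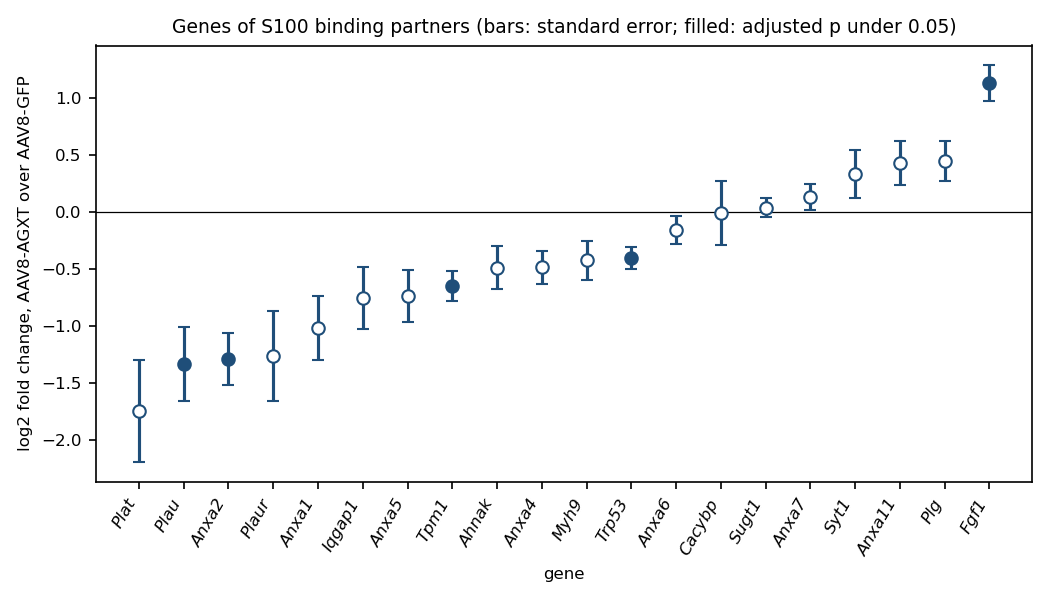
Log2 fold change, AAV8-AGXT over AAV8-GFP, of 20 genes of S100 binding partners and of the plasminogen system, sorted by size. Bars are the standard error of the edgeR fit and filled symbols mark an adjusted p under 0.05. Fgf1 (1.13) is the filled symbol above 0, and Plau, Anxa2, Tpm1 and Trp53 are the filled symbols below it.

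Genes of S100 receptors did not pass the test. Of 10 receptors and co-receptors, all tested, 0 were called by edgeR, 3 were lower and 0 higher at an unadjusted p under 0.05 (12.6% and 13.5% over all genes), DESeq2 called 2 lower, and the median log2 fold change was -0.44. The smallest p belonged to Cd14, the co-receptor of Toll-like receptor 4, with 26.7, 31.2, 27.1 and 19.2 CPM in AAV8-GFP mice and 6.28, 11.3, 12.5 and 18.9 CPM in AAV8-AGXT mice. Animal 319 nearly reached the lowest AAV8-GFP value (log2 fold change -1.08, SE 0.28, adjusted p = 0.061 by edgeR). Ager, the gene of RAGE, was low in every mouse, at 1.11 to 2.63 CPM with AAV8-GFP and 1.13 to 1.64 CPM with AAV8-AGXT (log2 fold change -0.58, adjusted p = 0.244). Tlr4 was 1.68 to 2.65 against 0.483 to 2.28 CPM (log2 fold change -0.68, adjusted p = 0.296). Alcam (-0.73, adjusted p = 0.0833) and Emb, the gene of the S100A9 receptor embigin (-0.84, adjusted p = 0.154), were also among the 4 smallest p.

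Downstream of these receptors, 0 of 13 genes that carry signals to NF-kB were called by edgeR, with a median log2 fold change of 0.02. At an unadjusted p under 0.05, 1 was lower and 3 were higher, near the 12.6% and 13.5% over all genes, and DESeq2 called 1 in each direction, near its 6.93% and 7.08%. The smallest p belonged to the kinase gene Chuk (log2 fold change 0.34, adjusted p = 0.0866), followed by Nfkbia, the gene of the inhibitor IkBa (-0.31, adjusted p = 0.116), Traf6 (0.34, adjusted p = 0.141) and Irak1 (0.23, adjusted p = 0.158).

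Other alarmin genes did not pass the test either. Of 15, 14 were tested, 0 were called by edgeR, 3 were lower and 1 higher at an unadjusted p under 0.05 (12.6% and 13.5% over all genes), DESeq2 called 1 in each direction (6.93% and 7.08% over all genes), and the median log2 fold change was -0.12. The mitochondrial chaperonin gene Hspd1 (log2 fold change 0.49, adjusted p = 0.0738 by edgeR) and the cytokine gene Il33 (-1.29, adjusted p = 0.0998) had the smallest p, followed by Tslp (-1.38, adjusted p = 0.134) and the heat shock gene Hspa1a (-1.71, adjusted p = 0.160). The Hspa1a value was -0.73 without animal 311, which had 6.61 CPM where the other AAV8-GFP mice had 0.703 to 1.99 CPM. Animal 319 had 3221 CPM of the acute-phase gene Saa1, where the other AAV8-AGXT mice had 108 to 320.1 CPM and the AAV8-GFP mice 390.1 to 699 CPM. Animal 319 was also the AAV8-AGXT mouse with the highest S100a8 and S100a9.

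Of 24 genes of other small EF-hand proteins, all tested, 3 fell, 1 rose and 20 were not called by edgeR, with a median log2 fold change of -0.21. Chp1, the gene of a calcineurin-like protein that binds sodium-proton exchangers, rose from 223 ± 13.4 to 355 ± 35.9 CPM (SD, n = 4, log2 fold change 0.67, adjusted p = 0.0294). Rcn3, the gene of a calcium-binding protein of the secretory pathway, fell from 19.96 ± 4.21 to 9.84 ± 2.08 CPM (log2 fold change -1.02, adjusted p = 0.0344). Calm3, a calmodulin gene, fell by 0.47 on the log2 scale (adjusted p = 0.0448), and Myl12b, a myosin light chain gene of which 739 exonic bases are annotated under 2 identifiers, fell by 0.67 (adjusted p = 0.0279). All 4 calls were lost without 303, 311, 314 or 319, the call of Rcn3 also without 308, and that of Calm3 also without 315, 308 or 316 (adjusted p up to 0.147).

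Of 14 genes of transcription factors known to act on S100 genes, 13 were tested, 1 rose, 0 were called lower by edgeR and the median log2 fold change was 0.08. At an unadjusted p under 0.05, 2 were lower and 1 higher, near the 12.6% and 13.5% over all genes. DESeq2 also called 2 lower and 1 higher, where it called 6.93% and 7.08% of all genes. Cebpa, the gene of a C/EBP factor of hepatocytes and myeloid cells, had 351, 349.9, 334 and 375 CPM in AAV8-GFP mice and 512, 538, 445 and 504 CPM in AAV8-AGXT mice. The groups were far apart (log2 fold change 0.50, SE 0.11, adjusted p = 0.0429 by edgeR), and the call was kept only without 316 (adjusted p up to 0.15 without another mouse). Spi1, the gene of PU.1, had 23.1, 37.6, 27.2 and 29.3 CPM in AAV8-GFP mice and 6.01, 12.6, 20.1 and 22.2 CPM in AAV8-AGXT mice, without overlap. It was not called by edgeR (log2 fold change -0.94, SE 0.34, adjusted p = 0.117), whereas DESeq2 gave an adjusted p of 0.0446.

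Summed markers of several cell types known to express S100 genes had lower medians in AAV8-AGXT mice, with or without overlap of the groups. Over 10 genes of monocyte-derived macrophages, the summed level was 935, 1238, 1127 and 643.5 CPM in AAV8-GFP mice and 125, 466, 571.5 and 286 CPM in AAV8-AGXT mice, without overlap. Of these, 10 of 10 had a negative log2 fold change (median -1.35), and 2 fell, the tetraspanin genes Cd9 (-1.03, adjusted p = 0.0298 by edgeR) and Cd63 (-1.61, adjusted p = 0.0455). Both calls were lost without 303, 311, 314 or 319, and that of Cd63 also without 308 or 309 (adjusted p up to 0.149). At an unadjusted p under 0.05 in edgeR, 9 of the 10 were lower (12.6% over all genes). DESeq2 called 8 of the 10 lower (6.93% over all genes). Animal 308, lowest in S100a11 and S100a6, was also lowest in the macrophage sum. Among AAV8-GFP mice, animal 315 had the lowest macrophage sum and the lowest S100a6 (7.85 CPM), but the highest S100a11 (119.7 CPM). Over 12 genes of stellate cells and fibroblasts the summed level was 584 to 1037 CPM with AAV8-GFP and 263 to 663 CPM with AAV8-AGXT, with overlap. Of these, 9 of 12 had a negative log2 fold change (median -0.83), 2 were called lower by edgeR, and DESeq2 called 3 lower. At an unadjusted p under 0.05 in edgeR, 8 were lower. Acta2, smooth muscle actin, fell by 0.99 on the log2 scale (adjusted p = 0.0427, lost without any single mouse) and Timp1, an inhibitor of matrix proteases, fell by 2.29 (adjusted p = 0.0444, lost without 303, 311, 314, 308, 309 or 319).

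Over 8 cholangiocyte genes the summed level was 53.6 to 107 CPM with AAV8-GFP and 43.9 to 66.5 CPM with AAV8-AGXT, with overlap. Of these, 7 were tested, 0 were called by edgeR, 6 were lower at an unadjusted p under 0.05 (12.6% over all genes), DESeq2 called 3 lower, and the median log2 fold change was -1.07. For Kupffer cells, the resident macrophages of the liver, the summed level was 622 to 1008 against 328 to 1222 CPM, with 0 of 10 genes called by edgeR, 1 lower and 2 higher at an unadjusted p under 0.05, 1 called higher by DESeq2, and a median of 0.08. For monocytes 0 of 10 were called by edgeR, with 3 lower and 1 higher at an unadjusted p under 0.05, 2 called lower by DESeq2, and a median of -0.64. The summed monocyte level went the other way, 942.5 to 1209 CPM with AAV8-GFP against 1055 to 1908 CPM with AAV8-AGXT. Its largest part was Fn1, with means of 914.5 and 1287 CPM (log2 fold change 0.49). Of the 10 monocyte genes, 9 had a negative log2 fold change, so the sum followed Fn1 and not the list as a whole. Of 9 hepatocyte genes 2 rose, Cyp2e1 (log2 fold change 1.15) and Cps1 (0.96), with a median of 0.37. Both calls were lost without 311, 314 or 319, and that of Cps1 also without 303 (adjusted p up to 0.117). The part of each cell type in the S100a6 and S100a11 values was not tested.

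**Figure D4:**
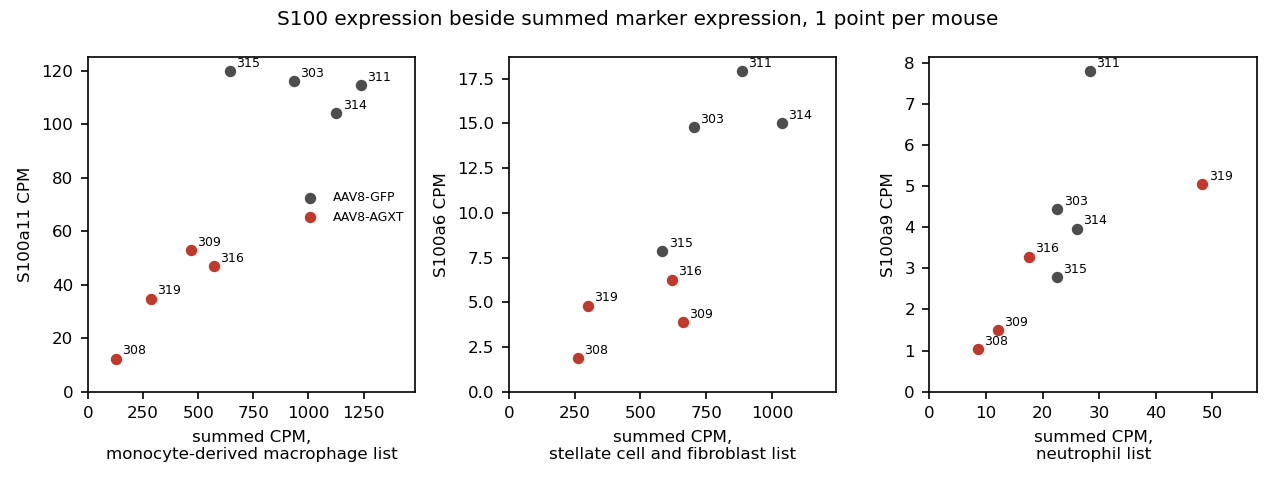
Normalized level of S100a11, S100a6 and S100a9 (CPM, vertical) beside the summed level of the macrophage, stellate cell and fibroblast, and neutrophil marker lists (CPM, horizontal), 1 point per mouse with its animal number, on linear axes from 0. AAV8-AGXT animal 308 has the lowest value on all 6 axes, and animal 319 has the highest neutrophil sum, 48.2 CPM, with a S100a9 level of 5.05 CPM. Among AAV8-GFP mice, animal 315 has the lowest macrophage sum and the highest S100a11.

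Markers of 7 further cell types were called in neither direction by edgeR. At an unadjusted p under 0.05, 4 of 9 tested genes of T and NK cells (median log2 fold change -0.85), 2 of 6 of dendritic cells (-0.50) and 1 of 2 of platelets (-0.55) were lower, 2 of 5 of red blood cells were higher (0.57), and 0 passed among 6 of B and plasma cells (-0.43), 8 of endothelial cells (0.23) and 2 of mesothelial cells (-0.60). Over all genes 12.6% were lower and 13.5% higher at this threshold. DESeq2 called 3 of the T and NK cell genes and 1 of the platelet genes lower and 1 of the red blood cell genes higher.

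The genes whose levels followed each member most closely from mouse to mouse were found from deviations from the group means of log2 CPM, over 8 libraries and 13738 genes of at least 1 mean CPM. For S100a11 these were Map4k1 (Pearson r = 0.99), Kif20b (r = 0.99) and Gm30692 (r = 0.99), of which Gm30692 fell (10.9 to 1.32 mean CPM, log2 fold change -3.03, adjusted p = 0.00924 by edgeR). For S100a6 they were Fkbp10 (r = 0.98), Ssbp4 (r = 0.98) and Pacs1 (r = 0.98), each with a negative log2 fold change that was not called (-1.18, -0.72 and -0.51). S100a1 was followed by Rab24, Polb and Gm12338, S100a10 by C1qtnf9, Glrx and Kctd18, S100a13 by Gm13021, Ctu2 and Eny2, and S100a16 by Fancf, Thumpd1 and 2210418O10Rik, at r of 0.956 to 0.995. S100a9 was followed by Tspan17 (r = 0.99), Limd2 (r = 0.97) and Batf3 (r = 0.97), and S100a8 by Pomk (r = 0.96), Smim22 (r = 0.95) and Polr1a (r = 0.94). These are the highest of many values over few libraries that share depth and cell makeup, and are given as a description.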

How the data were processed

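Liver RNA of 8 mice (AAV8-GFP, n = 4, and AAV8-AGXT, n = 4) was prepared with a stranded mRNA kit and sequenced as read pairs. The deposited files hold raw counts of read pairs per Ensembl gene, 1 file per mouse, which the authors made with Trimmomatic 0.35, HISAT2 2.1.0.13 (GRCm38) and HTSeq. The strand option and the handling of overlapping genes are not given in the sources used here. The final 5 rows of each file, which tally pairs on no gene, were left out of library sizes. They held 30.9% to 43.7% of the tallied pairs. Gene symbols, positions and exon lengths came from GENCODE M21, which matched 52489 of 52636 identifiers. Promoter windows came from RefSeq and were found for 8 of the 9 members.

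Counts were filtered with filterByExpr, scaled by TMM and tested with edgeR 4.0.16 (R 4.3.3) in a quasi-likelihood model with treatment as the only term. P-values were adjusted over 15248 genes. CPM values are counts per 1000000 of the TMM-scaled library. DESeq2 1.42.0, limma 3.58.1 (voom), other scaling factors, other filters and leaving out each mouse were alternatives. Intervals and limits of 3 counts cover counting error only. Animal numbers are not shared between groups. The S100 members and all gene lists were chosen with earlier results of these data known. The rule for named genes took all members, the called genes of each list with up to 4 others of smallest p, the 3 genes most like each member, and called neighbours. Plaur, Plg, Tlr4, Saa1, Ly6g and Mpo were named for their role after their values were seen. Of the called genes, Anxa2, Rcn3, Cd9 and Cebpa share exonic bases with a gene on the opposite strand, and read pairs of such partners cannot be told apart if strand was not used in counting.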

Additional observations from a re-analysis of the deposited data

Results flagged for a closer look

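In 70 tests of groups of 4 mice with Dixon's criterion, 6 values stood apart from the rest of their group, where chance marks about 1 in 20 groups. S100a8 was 3.49 CPM in AAV8-AGXT animal 319, with the next AAV8-AGXT value at 1.23 CPM. The summed level of the other alarmin genes was 6502 CPM in animal 319, with the next value at 1264 CPM, and the summed dendritic cell markers were lowest there, at 16.2 CPM against a next value of 20.9 CPM. Tchh was 14.7 CPM in AAV8-AGXT animal 309, with the next value at 4.004 CPM, and the summed other S100 family genes, which include Tchh, were 15.6 CPM there against 4.21 CPM. The summed genes of receptor signalling to NF-kB were lowest in AAV8-AGXT animal 316, at 699 CPM against a next value of 747 CPM.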

How the results depend on the processing

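The calls rest on 4 mice per group. S100a6 and S100a11 were called lower under each of the 9 alternatives of tool, scaling and filter that kept all mice, and the number of members called lower was 0 to 2 when each mouse was left out, with 0 without 303, 311, 314 or 319 (2 to 4 members had an unadjusted p under 0.05 there). Over all genes, 290 lower and 374 higher calls became 1054 and 1077 with DESeq2, 606 and 804 with voom quality weights, and 857 and 144 with no composition factor. They ranged from 0 to 325 lower and 2 to 379 higher when each mouse was left out, with 0 lower and 2 higher without 311 (1357 and 1306 at an unadjusted p under 0.05), 2 and 12 without 319, and 4 and 11 without 314. The log2 fold change of S100a1 ranged from -0.14 to 0.0325 when each mouse was left out and changed sign without 303 (0.0037), 309 (0.0325) or 316 (0.0234), and that of S100a13 with no composition factor (-0.0586). The log2 difference of the S100a8 to S100a9 ratio ranged from -0.11 (without 308) to 0.36, and that of the S100a10 to Anxa2 ratio from 0.74 to 1.17. The cause of these changes was not tested. No paired analysis was possible because the groups share no animal number. Depth limits S100a4, S100a8 and S100a9, which had at most 255 read pairs in any library. The called S100a6 also rests on few read pairs in AAV8-AGXT mice, 27 to 122 per library, against 178 to 585 in AAV8-GFP mice.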
